A study of Mus musculus with 12 samples.

Results

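The receptors with which macrophages bind and take up debris, modified lipoproteins, hemoglobin complexes and dying cells were examined as a set of 10 genes, out of 31053 genes measured, in single cells from mouse breast tumors. The genes were chosen by name: Mrc1, Cd163, Stab1, Msr1, Cd36, Lyve1, Timd4, Folr2, Mertk and Axl. All 10 were found in both matrices and are accounted for below. Scavenger receptors such as MSR1, CD36, CD163 and stabilin-1 bind polyanionic, lipid or hemoglobin-bound ligands and deliver them to lysosomes. Efferocytosis is the engulfment of apoptotic cells, which expose phosphatidylserine. TIM4, stabilin-1 and CD36 can contact dying cells at the surface, whereas the TAM kinases MERTK and AXL bind phosphatidylserine through bridging proteins such as GAS6. MRC1 (mannose receptor), FOLR2 (folate receptor beta), LYVE1 (hyaluronan receptor), CD163 and TIM4 are also known as markers of tissue-resident macrophages.

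The tumors came from PyMT mice, which carry the polyoma middle T oncogene under the MMTV promoter and develop breast cancer spontaneously, without further treatment. The series has 12 samples in 4 groups of 3, in which magnetic beads enriched either CD11c+ cells (late tumor stage) or CD4+ and CD8+ cells (tumors of intermediate size), each from wild-type mice (PAR2 WT) and from mice whose PAR2 carries the G37I change and resists signaling by coagulation factor Xa. The labels give no age for the mice of each sample, and PyMT mice of the study were usually killed once tumors had grown to the permitted limit. The cells were frozen and thawed before capture on the 10x Genomics platform, which counts mRNA molecules by unique molecular identifiers (UMIs).

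The authors deposited 1 matrix for the CD11c-selected and 1 for the CD4/CD8-selected cells, and the barcodes name no sample. Each matrix was therefore treated as 1 sample, the genotypes were not compared, and no p-values are given. The 11639 CD11c-selected cells kept held 123642015 UMIs (median 7943 per cell), and the 22806 CD4/CD8-selected cells kept held 135965765 UMIs (median 4361 per cell). In each matrix the barcodes run through the alphabet 6 times. These 6 barcode runs were not linked to samples or genotypes and serve only to show how far a value spreads. Within a matrix, 76 and 51 barcodes were repeats, and 92 barcode sequences occurred in both matrices. In the CD11c-selected cells, run 4 was the smallest (360 cells) and the deepest, with a median of 31096.5 UMIs per macrophage against 8218 to 10168.5 in the other runs. In the CD4/CD8-selected cells, run 3 held 476 of the 927 macrophages.

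Cells were sorted into gates by raw UMIs of marker genes, none of which is a member. Macrophages had at least 10 UMIs of C1qa, C1qb and C1qc together, at least 1 UMI of Adgre1, Fcgr1 or Csf1r, and at most 1 UMI of the CD3 genes. Of the 6721 macrophages among the CD11c-selected cells, 110 were in the Cd209f gate alone, 282 in the Gpnmb/Spp1 gate, 671 in the Thbs1/Vegfa gate, 858 in the Il10 gate, 4317 in none of these (called other macrophages), and 483 met more than 1 gate and were left out of the 4. With cells of several gates kept, the Cd209f gate held 242 cells, Gpnmb/Spp1 518, Thbs1/Vegfa 1020 and Il10 1127. The remaining gates used here held 54 Ly6c2 monocytes, 912 conventional DCs (464 cDC1, 253 cDC2 and 195 migratory DCs), 90 fibroblasts and 37 endothelial cells. Levels are given in UPM, the UMIs of a gene per 1000000 UMIs of all genes summed over the cells of a gate, and 95% confidence intervals (CI) are exact Poisson intervals that cover counting error only. All 6 macrophage markers checked were detected in each macrophage gate, where they summed to between 8084 UPM in other macrophages and 22846 in the Gpnmb/Spp1 gate, against 249 in fibroblasts. Of these 6, Adgre1, Fcgr1 and Csf1r also served for the gate. The same 6 summed to 8849 UPM in Ly6c2 monocytes, where the 4 monocyte markers, with the gate gene Ly6c2 among them, summed to 3176 against 324 in all macrophages. Macrophages made up 57.7% of the CD11c-selected cells and T cells 83.7% of the CD4/CD8-selected cells. A further 3358 CD11c-selected cells (28.9%) were in no gate, at a median of 2472 UMIs. In them the macrophage markers summed to 5568 UPM and the DC markers to 824. Whether they are shallow macrophages or DCs that missed the gate minimums was not tested. Doublets were not called or removed.

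Promoters are shown for 5 members, namely 4 called higher in Cd209f than in Gpnmb/Spp1 macrophages (Mrc1, Cd163, Folr2 and Timd4) and 1 that was lower there in 6 of 6 runs (Axl). The sequences are the 250 bases before the RefSeq gene start (GRCm38.p6), printed 5′ to 3′ on the strand of the gene, with capitals marking GAGGAA (a core bound by PU.1) or TGCTGA (an arm of the MAF recognition element) on either strand. The windows are Mrc1 at chr2:14229164-14229413 (plus strand), Cd163 at chr6:124304401-124304650 (plus strand), Folr2 at chr7:101857191-101857440 (minus strand, the upstream one of its starts), Timd4 at chr11:46810549-46810798 (plus strand) and Axl at chr7:25788734-25788983 (minus strand).
Mrc1: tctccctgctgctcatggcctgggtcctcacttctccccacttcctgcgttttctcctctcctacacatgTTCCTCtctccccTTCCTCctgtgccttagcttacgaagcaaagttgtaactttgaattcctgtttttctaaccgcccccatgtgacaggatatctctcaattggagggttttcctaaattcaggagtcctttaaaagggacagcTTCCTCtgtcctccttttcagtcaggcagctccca
Cd163: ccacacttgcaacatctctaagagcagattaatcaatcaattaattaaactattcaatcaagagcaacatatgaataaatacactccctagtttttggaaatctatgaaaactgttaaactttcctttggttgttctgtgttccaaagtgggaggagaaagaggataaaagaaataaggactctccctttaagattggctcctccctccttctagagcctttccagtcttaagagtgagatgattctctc
Folr2: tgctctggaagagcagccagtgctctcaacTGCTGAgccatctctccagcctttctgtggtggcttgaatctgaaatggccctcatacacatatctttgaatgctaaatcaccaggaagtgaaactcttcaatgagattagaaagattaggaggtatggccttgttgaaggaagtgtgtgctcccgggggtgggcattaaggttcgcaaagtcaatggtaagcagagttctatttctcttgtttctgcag
Timd4: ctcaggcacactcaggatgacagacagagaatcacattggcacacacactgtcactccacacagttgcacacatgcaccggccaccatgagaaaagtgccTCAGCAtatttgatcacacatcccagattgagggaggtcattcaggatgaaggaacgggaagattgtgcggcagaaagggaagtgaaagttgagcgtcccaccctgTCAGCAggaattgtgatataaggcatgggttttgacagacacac
Axl: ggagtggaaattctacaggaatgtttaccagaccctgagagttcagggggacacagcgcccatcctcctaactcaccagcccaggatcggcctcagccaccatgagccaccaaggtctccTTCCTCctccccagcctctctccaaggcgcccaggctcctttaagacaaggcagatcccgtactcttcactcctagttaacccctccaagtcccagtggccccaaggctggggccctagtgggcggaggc
The Mrc1 window held 3 matches to GAGGAA and the Axl window held 1, while the Folr2 window had 1 match to TGCTGA and the Timd4 window had 2. The Cd163 window had no match to either. RefSeq windows were matched for 8 of the 10 members (9 windows), with Msr1 and Lyve1 unmatched. GAGGAA occurred in 3 of the 9 member windows and in 23.3% of all 32851 windows of this length. TGCTGA occurred in 5 of the 9 and in 16.1% of all windows, and these 5 include both starts of Folr2. The palindrome CACGTG, an E-box, occurred in 0 of the 9 and in 6.02% of all windows. On GRCm38 (GENCODE M21), the protein-coding genes lie on chromosome 2 (Mrc1 at 14229392 to 14332057, Mertk at 128698956 to 128802894), chromosome 5 (Cd36 at 17781690 to 17888801), chromosome 6 (Cd163 at 124304656 to 124330527), chromosome 7 (Axl at 25757273 to 25788705, Folr2 at 101839988 to 101857194, Lyve1 at 110850607 to 110863239), chromosome 8 (Msr1 at 39581685 to 39642673), chromosome 11 (Timd4 at 46810800 to 46844332) and chromosome 14 (Stab1 at 31139013 to 31168641).

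Macrophages held most UMIs of 9 of the 10 members in the CD11c-selected cells. Their part of all UMIs of the gene ran from 77.6% for Cd36 to 98.5% for Folr2, while macrophages held 64.1% of the UMIs of all genes. Timd4 was the exception, with 22.7% of its UMIs in macrophages and 51.6% in conventional DCs. Cells in no gate, which held 15.7% of the UMIs of all genes, are in neither share. Over all macrophages, Mrc1 stood at 497 UPM (CI 493 to 502) and ranged from 282 over a median of 493 to 872 between runs. Axl stood at 271 UPM with 167 to 342 between runs, and Mertk at 35.7 with 32.03 to 41.9. Stab1 (197 UPM, 186 to 233) had the narrowest spread between runs, whereas Cd163 (27.0 UPM, 13.0 to 77.6) and Lyve1 (28.9 UPM, 14.05 to 89.5) were highest in run 4. Folr2 stood at 152 UPM, Msr1 at 125, Cd36 at 114 and Timd4 at 3.83. The counts were not set per transcript length, so levels are compared between gates and not between genes.

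**Figure D1:**
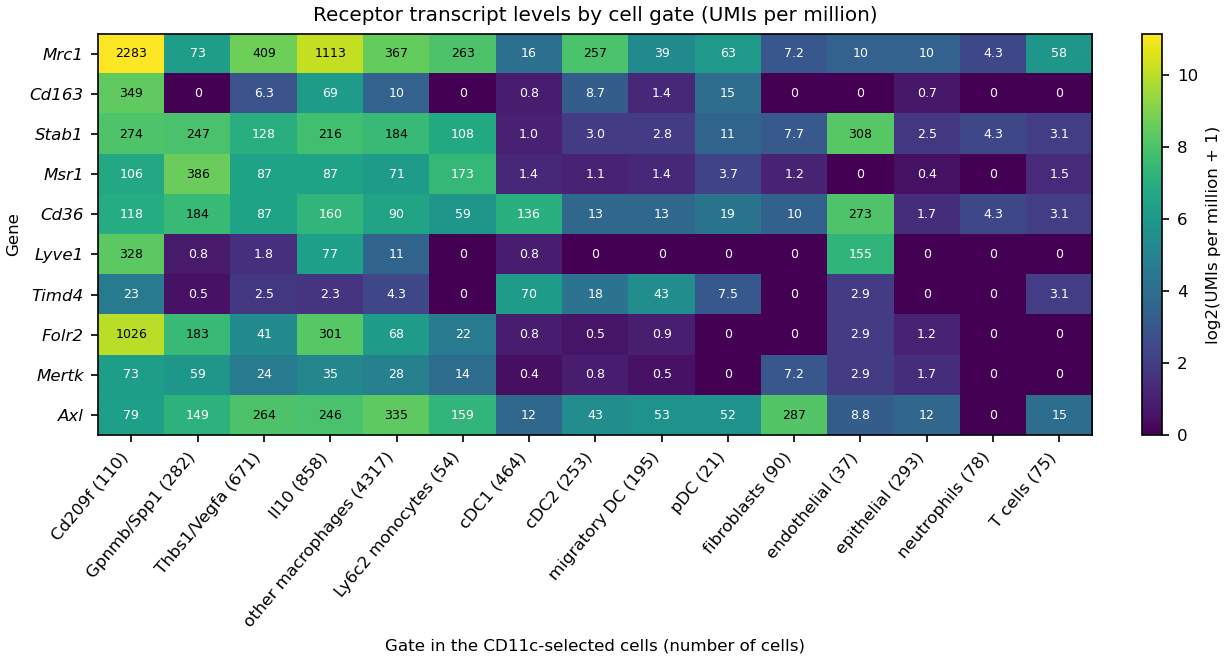
Heatmap of the levels of the 10 receptor genes (rows) in 15 gates of the CD11c-selected cells (columns, number of cells in brackets), colored by log2(UPM + 1) and printed as UPM. Mrc1, Folr2, Cd163 and Lyve1 peak in the Cd209f gate, Msr1 in the Gpnmb/Spp1 gate and Timd4 in cDC1, while Axl reaches 287 UPM in fibroblasts.

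The 4 macrophage gates did not rank alike for the members. Among these gates, 7 of the 10 members were highest in the Cd209f gate (Mrc1, Cd163, Stab1, Lyve1, Timd4, Folr2 and Mertk). All but Timd4 were among the 7224 genes with a mean of at least 10 UPM over the gates, of which 33.7% were highest there. For Stab1 and Mertk, the CI in the Cd209f gate overlapped that of the Gpnmb/Spp1 gate. Msr1 and Cd36 were highest in the Gpnmb/Spp1 gate, and Axl in the Thbs1/Vegfa gate, where its CI overlapped that of the Il10 gate. Thinned to 2000 UMIs per cell, a Cd209f macrophage had a mean of 3.30 members detected, an Il10 macrophage 2.20, a Gpnmb/Spp1 macrophage 1.73 and a Thbs1/Vegfa macrophage 1.35, against 1.09 in a Ly6c2 monocyte and 0.365 in a cDC1. Of Cd209f macrophages 68.5% had 3 or more members, and of Thbs1/Vegfa macrophages 10.6% did.

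**Figure D2:**
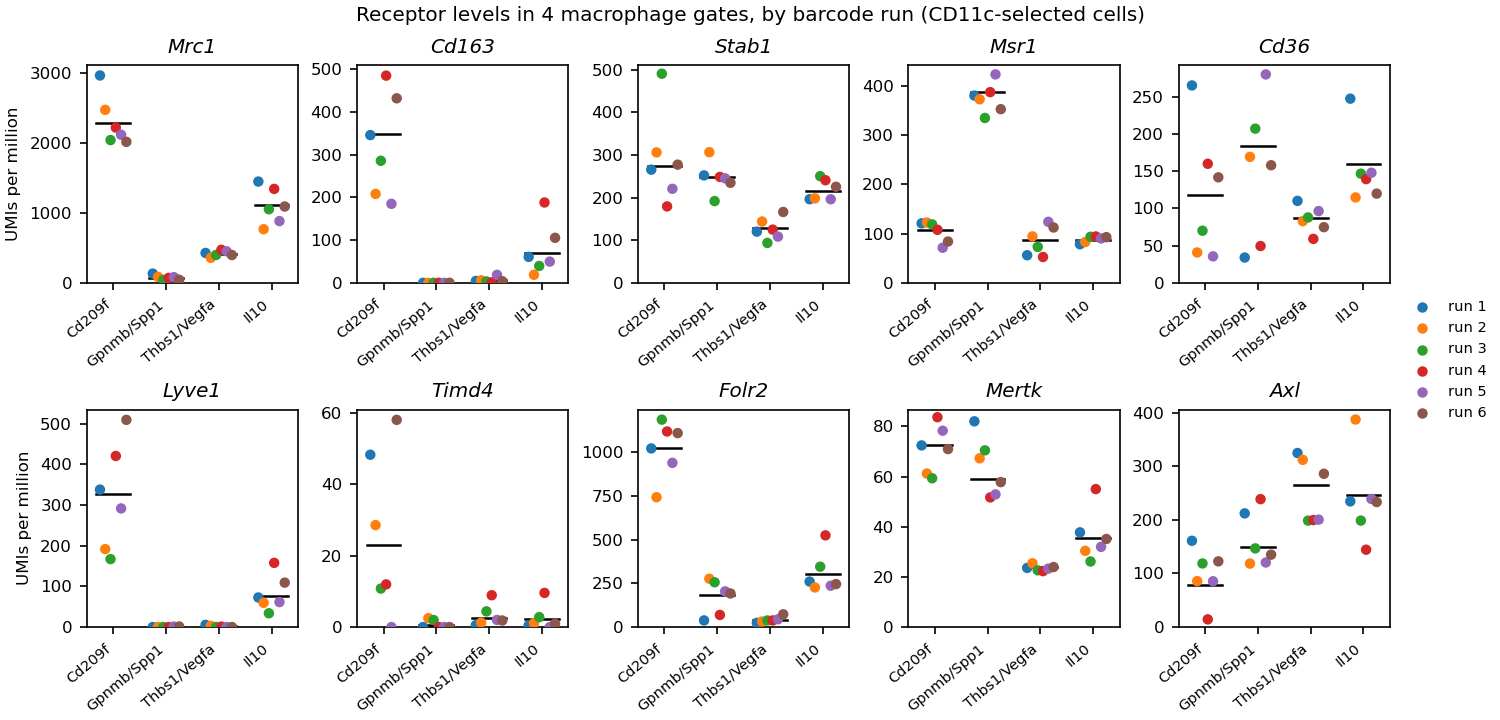
Levels (UPM) of each receptor gene in 4 macrophage gates of the CD11c-selected cells, with 1 point for each of the 6 barcode runs and a bar at the level over all runs. Mrc1, Cd163, Lyve1 and Folr2 in the Cd209f gate lie above the Gpnmb/Spp1 gate in every run, and Msr1 lies below it in every run, with 335 to 423 UPM in the Gpnmb/Spp1 gate.

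The Cd209f and Gpnmb/Spp1 gates were compared first. Cd209f encodes a C-type lectin of perivascular and serosal macrophages, whereas Gpnmb and Spp1 mark lipid-laden macrophages. At a difference of at least 2-fold, 5 of the 10 members were higher in the Cd209f gate (Mrc1, Cd163, Lyve1, Timd4 and Folr2) and 1 was lower (Msr1). Cd163, Lyve1 and Timd4 (0, 0.771 and 0.462 UPM in the Gpnmb/Spp1 gate) met the minimum mean of 10 UPM only through the Cd209f gate. Their calls are therefore not separate from that filter. Of the 7334 genes compared, 11.9% were higher and 9.18% were lower, and the median log2 fold was 1.39 for the members and 0.03 for all these genes. No call has a replicate test, since each gate is part of 1 sample.

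The mannose receptor gene Mrc1 separated the gates. Over the 6 runs its level in the Cd209f gate was 2019 at the lowest, 2172 at the median and 2969 UPM at the highest. In the Gpnmb/Spp1 gate it was 41.1 at the lowest, 75.7 at the median and 132 at the highest. The gates did not overlap, and over all runs the level was 2283 against 72.9 UPM, 31.3-fold higher (CI 28.4 to 34.6). A Mrc1 UMI was found in 96.3% of Cd209f macrophages and 6.88% of Gpnmb/Spp1 macrophages after thinning (99.1% and 38.7% unthinned), and in 0.0968% of CD4/CD8-selected T cells, which should lack it. The median depth was 9627, 19748.5 and 4476 UMIs per cell in these 3 gates. Among the 75 T cells of the CD11c selection, 5 held 38 Mrc1 UMIs, of which 20 were in 1 cell. The Mrc1 level of these T cells was 58.2 UPM, near the 72.9 of the Gpnmb/Spp1 gate. Epithelial markers summed to 4371 UPM in the same T cells.

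Cd163, the receptor gene for hemoglobin bound to haptoglobin, and Lyve1 were close to absent from the Gpnmb/Spp1 gate. Cd163 ranged from 185 over a median of 316 to 485 UPM between runs of the Cd209f gate and had 0 UMIs in every run of the Gpnmb/Spp1 gate, which allows a level of up to 0.462 UPM. Over all runs the ratio of the Cd209f gate to the Gpnmb/Spp1 gate was 755 with the 0 set to 3 counts. The exact lower limit of its CI was 612. Lyve1 ranged from 167 over a median of 315 to 510 UPM in the Cd209f gate and from 0 to 1.44 in the Gpnmb/Spp1 gate, a ratio of 426 (CI 181 to 1318) that rests on 5 UMIs in the lower gate. After thinning, 27.8% of Cd209f macrophages had a Cd163 UMI and 34.3% a Lyve1 UMI, against 45.5% and 54.5% unthinned. The 5 endothelial markers, checked because lymphatic endothelium carries LYVE1, summed to 16.6 UPM in the Cd209f gate and 17.0 in the Gpnmb/Spp1 gate.

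Folr2 was present in both gates and higher in the Cd209f gate. Its level ranged from 743 over a median of 1066 to 1186 UPM there and from 38.0 over a median of 198 to 277 in the Gpnmb/Spp1 gate, without overlap, and was 5.61-fold higher over all runs (CI 5.18 to 6.07). Timd4, the gene of the phosphatidylserine receptor TIM4, was low in both gates. It had 29 UMIs in the Cd209f gate and 3 in the Gpnmb/Spp1 gate (22.9 and 0.462 UPM, ratio 49.4, CI 15.3 to 254). Its 6 runs ranged from 0 to 58.1 UPM in the Cd209f gate and from 0 to 2.49 in the other, so the gates overlapped. Without run 6, its level fell to 18.0 against 0.588 UPM, below the minimum of a mean of 10 for the comparison. With a gate marker minimum of 1 UMI, its level in the Gpnmb/Spp1 gate was 3.62.

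Msr1, the gene of scavenger receptor A, went the other way. It ranged from 71.2 over a median of 113 to 122 UPM in the Cd209f gate and from 335 over a median of 376 to 423 in the Gpnmb/Spp1 gate. The ranges were apart, and the level over all runs was 3.63-fold higher in the Gpnmb/Spp1 gate (386 against 106 UPM). Axl was lower in the Cd209f gate in 6 of 6 runs, but the ranges of 14.3 to 161 and 118 to 239 UPM overlapped, and the difference over all runs (78.8 against 149 UPM, 1.89-fold) was under the limit. It passed the limit when run 1, 3, 5 or 6 was left out, at 2.06, 2.07, 2.12 and 2.10-fold, and Cd36 passed it without run 4, at 2.10-fold (97.6 against 205 UPM).

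The other members differed by less than 2-fold between these gates. Stab1, the gene of stabilin-1, ranged from 179 over a median of 271 to 491 UPM in the Cd209f gate and from 192 over 247 to 307 in the Gpnmb/Spp1 gate, with a ratio of 1.11 over all runs (CI 0.985 to 1.25). Mertk ranged from 59.3 over a median of 71.7 to 83.7 and from 51.7 over 62.5 to 82.0, with a ratio of 1.23 (CI 0.965 to 1.54). The ranges of both genes overlapped. Cd36, a receptor for oxidized lipoproteins and long-chain fatty acids, stood at 118 and 184 UPM and spread widely between runs, from 35.6 to 266 in the Cd209f gate and from 34.0 to 280 in the other. In the Cd209f gate Stab1 and Mertk were higher in 3 of the 6 runs and Cd36 in 2.

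**Figure D3:**
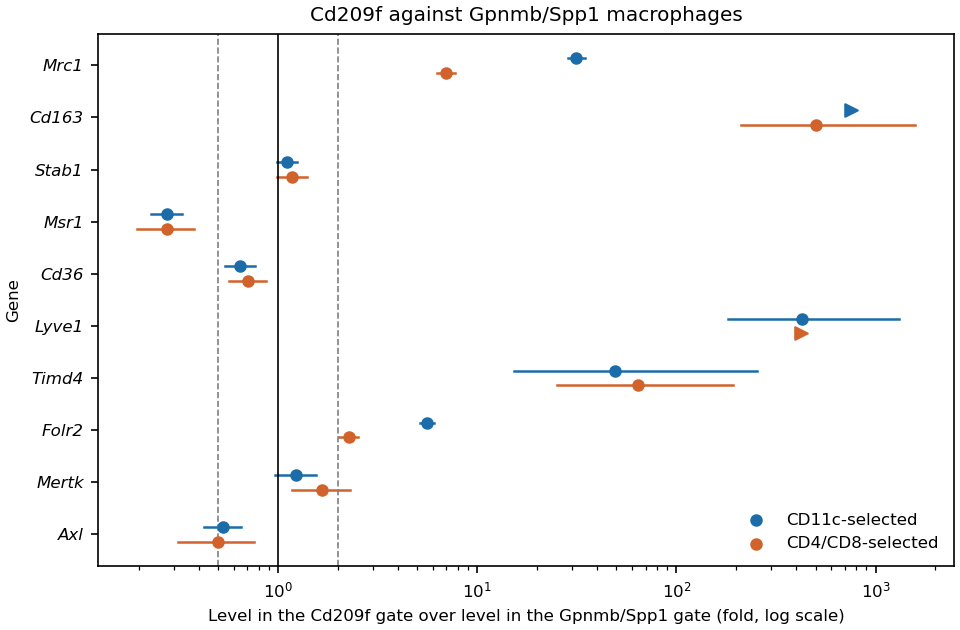
Ratio of the level in the Cd209f gate to that in the Gpnmb/Spp1 gate (log scale) for each receptor gene in the CD11c-selected (blue) and CD4/CD8-selected (orange) cells, with exact 95% intervals of the ratio for counting error. Arrowheads are lower bounds for genes with 0 UMIs in the Gpnmb/Spp1 gate, dashed lines mark 2-fold, and Msr1 lies left of them in both matrices.

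The ligands of the TAM kinases were also higher in the Cd209f gate. Gas6, whose product bridges phosphatidylserine to AXL and MERTK, stood at 883 UPM in the Cd209f gate and 125 in the Gpnmb/Spp1 gate (7.08-fold, CI 6.46 to 7.76), and Pros1, encoding protein S, at 157 and 26.4 (5.95-fold). Both were higher in 6 of 6 runs. Of the 7 ligand and bridge genes that could be compared out of 8, 2 were higher and 3 lower. The lower ones were Lgals3 (746 against 5602 UPM), Anxa1 (124 against 585) and Mfge8, the bridge to alpha v integrins, at 5.52 against 620 (112-fold lower).

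In the other receptor lists, the genes past the limit were all lower in the Cd209f gate. Of 14 further phosphatidylserine receptor genes 6 could be compared, and 0 were higher and 3 lower, namely Lrp1 (82.8 against 409 UPM), Itgb5 (88.3 against 362) and Cd300lf (6.31 against 75.0). Of 14 further scavenger receptor genes 13 were in the matrix and 8 could be compared, and 0 were higher and 4 lower, which were Cd68 (572 against 1207), Cxcl16 (225 against 509), Cd5l (7.88 against 79.8) and Olr1 (3.15 against 37.3). Of 8 heme and iron genes 5 could be compared and the ferritin genes Fth1 (10395 against 30878 UPM) and Ftl1 (8301 against 19404) were lower. Hmox1, which degrades the heme that CD163 brings in, stood at 1726 and 1169, a ratio of 1.48.

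Among genes for the steps after binding, 2 of 11 engulfment and cholesterol export genes compared (of 13) were lower in the Cd209f gate and 0 higher. These were the cholesterol transporter gene Abcg1 (72.5 against 236 UPM) and Nr1h3, encoding the sterol receptor LXR alpha (15.0 against 33.6), whereas Abca1 stood at 423 and 462. Of 7 transcription factor genes compared (of 8), 4 were higher and 0 lower. Among them, Maf stood at 653 against 52.5 UPM (12.4-fold), Id3 at 70.2 against 22.3 (3.14-fold) and Cebpb at 2060 against 1019 (2.02-fold). The sheddase genes Adam10 and Adam17, whose products cleave MERTK and other receptors from the surface, differed by less than 2-fold. The lists were drawn up with earlier results of these data known.

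The Il10 and Thbs1/Vegfa gates were compared next, as macrophages that express an inhibitory cytokine or angiogenic and matrix genes. Of the 9 members that could be compared, 4 were higher in the Il10 gate and 0 lower, and of all 7051 genes compared 3.35% were higher and 1.66% lower. Mrc1 ranged from 767 over a median of 1073 to 1450 UPM in the Il10 gate and from 358 over a median of 413 to 473 in the Thbs1/Vegfa gate, 2.72-fold higher over all runs. Folr2 ranged from 226 over a median of 253 to 525 in the Il10 gate and from 24.1 over a median of 37.8 to 73.0 in the other, 7.42-fold higher. Neither pair of ranges overlapped. In the CD4/CD8-selected cells, Folr2 stood at 520 UPM in the Il10 gate and 299 in the Thbs1/Vegfa gate. Without run 3 of those cells it stood at 372 and 97.3. Mrc1 stood at 672 and 279 there over all runs.

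Cd163 and Lyve1 were also higher in the Il10 gate. Cd163 stood at 69.2 against 6.30 UPM (11.0-fold, CI 8.46 to 14.5) and ranged from 18.8 to 188 and from 1.11 to 18.6 between runs. Without run 5, its level in the Thbs1/Vegfa gate was 4.08. Lyve1 stood at 76.8 against 1.83 (42.0-fold, CI 26.4 to 71.3), with 33.9 to 158 and 0 to 5.48 between runs and 0.998 in the Thbs1/Vegfa gate without run 1. Run 4 was the highest of the Il10 gate for both genes. Of the other members, Cd36 had a ratio of 1.84, Stab1 of 1.69 and Mertk of 1.49, each higher in the Il10 gate in 6 of 6 runs, while Msr1 stood at 87.4 UPM in both gates and Axl at 246 and 264. Timd4, at 2.27 (1.13 without run 4) and 2.54 UPM, was below the level for the comparison.

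Of the gene lists, Gas6 was again among the higher genes in the Il10 gate (319 against 39.9 UPM, 7.99-fold), with Maf (248 against 44.8), Id3 (68.0 against 17.6) and Hmox1 (562 against 219). The phosphatidylserine receptor gene Cd300lb was higher there (64.2 against 28.6) and its relative Cd300lf lower (16.7 against 37.3). Of 7 ligand and bridge genes compared, Gas6 was the 1 higher, and Mfge8 (7.89 against 18.6) and the gate marker Thbs1 were lower. In the Il10 gate, 2 of 6 transcription factor genes, 1 of 5 heme and iron genes and 1 of 6 further phosphatidylserine receptor genes were higher, and 0 of 7 further scavenger receptor genes and 0 of 12 engulfment and cholesterol export genes passed the limit.

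Within macrophages, members detected together can be followed cell by cell. After thinning to 2000 UMIs, Lyve1 was detected in 238 of 6120 macrophages. In these cells Cd163 was 17.5-fold higher than in macrophages without Lyve1 (301 against 17.2 UPM), Folr2 10.5-fold higher (1196 against 114) and Mrc1 5.39-fold higher (2325 against 431). Of the Lyve1+ macrophages, 96.6% also had Mrc1 and 83.2% had Folr2, against 36.1% and 13.0% of the others. Timd4 (5.94-fold), Mertk (2.07-fold), Cd36 (2.00-fold) and Stab1 (1.67-fold) were also higher with Lyve1. Msr1 stood at 128 and 125 UPM with and without Lyve1, and Axl at 42.0 and 277, a ratio of 0.152 (CI 0.126 to 0.182).

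Axl was detected in 2521 of the 6120 macrophages, and no other member was higher with Axl than without it. In Axl+ macrophages Lyve1 stood at 3.83 against 43.7 UPM without Axl, Cd163 at 8.35 against 38.4, Folr2 at 58.3 against 208 and Mrc1 at 289 against 622. Mertk, its fellow TAM kinase gene, stood at 31.3 against 38.4, and Stab1 at 196 against 197. Msr1 stood at 99.3 against 140, Cd36 at 95.3 against 125 and Timd4 at 1.90 against 4.98. The median depth of the cells with and without Axl was 9332 and 10465 UMIs, and that of the cells with and without Lyve1 was 8577.5 and 10001. From the shallowest to the deepest of 4 equal parts of the macrophages by depth the level of Mrc1 went from 697 to 384 UPM. That of Axl went from 394 to 224 and that of Msr1 from 104 to 154, and the part of depth in these differences was not tested.

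**Figure D4:**
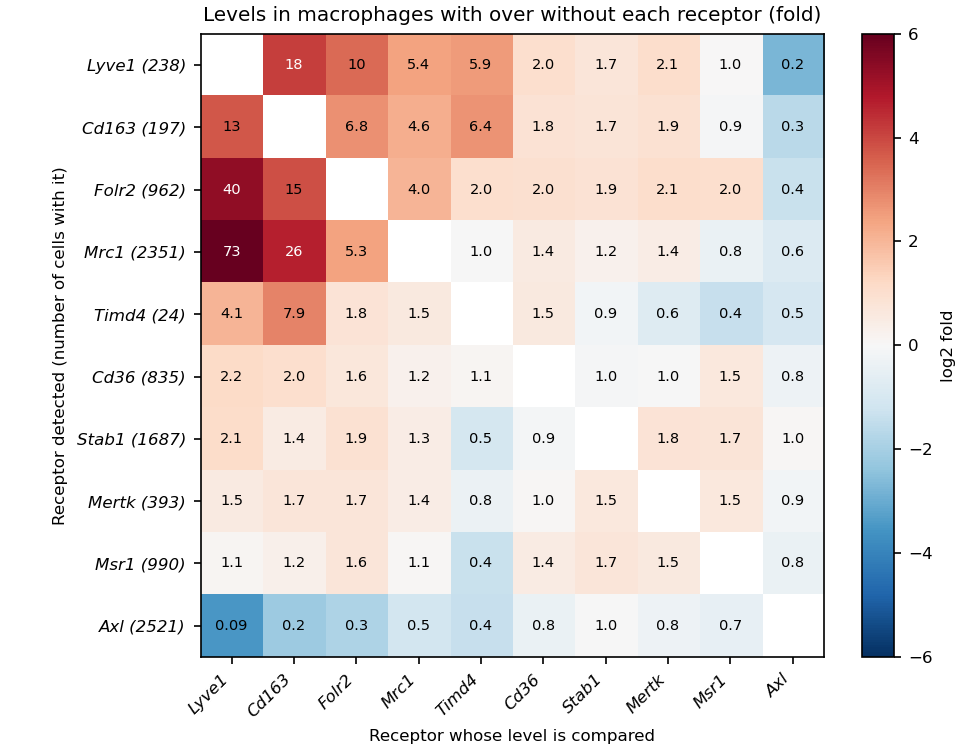
Ratio of the level of each receptor gene (columns) in macrophages with a UMI of another receptor (rows, number of cells with it in brackets) to that in macrophages without it, among 6120 CD11c-selected macrophages thinned to 2000 UMIs for detection. Lyve1, Cd163, Folr2 and Mrc1 form a block of ratios above 1 and Axl has the lowest ratio with Lyve1.

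Timd4 was detected in only 24 of these macrophages. They had higher levels than the other macrophages of Cd163 (208 against 26.2 UPM, 7.93-fold), Lyve1 (117 against 28.4, 4.13-fold) and the gate marker Cd209f (363 against 48.4), and lower Msr1 (48.2 against 126). They also had higher levels of the cDC1 genes Xcr1 (81.8 against 4.84 UPM, 16.9-fold) and Clec9a (65.0 against 4.97) and of the DC gene Flt3 (46.1 against 6.30), whose part in the result was not tested. Their median depth was 13030 UMIs, against 9903 in the others. Xcr1, Clec9a and Flt3 were chosen after their values were seen.

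Against Ly6c2 monocytes, the inflammatory monocytes that can give rise to macrophages, 4 of 9 members compared were higher in macrophages and 0 lower, with 7.07% of 7019 genes higher and 3.8% lower. The comparison rests on 54 monocytes from 5 runs. Folr2 stood at 152 against 22.4 UPM (6.79-fold, CI 3.79 to 13.6), and all 11 Folr2 UMIs of the monocytes were in run 5. Mertk stood at 35.7 against 14.3 (2.50-fold, CI 1.21 to 6.22), with 7 UMIs in monocytes. Cd163 and Lyve1 had 0 UMIs in monocytes, which allows up to 6.12 UPM. With the 0 set to 3 counts, the ratios of macrophages to monocytes were 4.42 and 4.72, with lower CI limits of 3.59 and 3.84.

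Of the other members, 5 were also detected in Ly6c2 monocytes, and Timd4 had 0 UMIs there. Mrc1 stood at 263 UPM there and ranged from 0 over a median of 262 to 457 between runs, Axl at 159 with 121 to 240, Stab1 at 108 with 22.9 to 271 and Cd36 at 59.2 with 0 to 237. Msr1 was at 173 in monocytes and 125 in macrophages. Without run 5, the monocyte levels fell to 115 for Msr1, 72.2 for Stab1 and 19.9 for Cd36, and Stab1 (2.76-fold) and Cd36 (5.51-fold) were then called higher in macrophages. Cd163 was not compared without run 4, where its level in macrophages was 19.6, and Mrc1 was called without run 1 (2.01-fold) or 6 (2.36-fold) and Stab1 without run 2 (2.24-fold). Of the TAM ligands, Gas6 had 2 UMIs in monocytes (4.08 UPM against 150 in macrophages, ratio 36.7, CI 10.2 to 303). Of 7 ligand and bridge genes 2 were higher in macrophages (Gas6 and Mfge8) and 1 lower, which was Thbs1 (405 against 2203 UPM). Of 6 heme and iron genes compared, Hmox1 (517 against 194 UPM) and Blvrb (178 against 85.7) were higher and Hp, encoding haptoglobin, lower (5.82 against 95.9). Of 8 further scavenger receptor genes compared, 1 was higher (Cd5l) and 2 were lower, with Olr1 among them, and of 7 transcription factor genes Maf was higher (126 against 51.0 UPM) and Cebpb lower (1223 against 2556).

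Against conventional DCs, the other phagocytes of the selection, 8 of the 10 members were higher in macrophages and 1 was lower, with 12.2% of 7175 genes higher and 7.32% lower. Folr2 was 205-fold higher (152 against 0.743 UPM), Stab1 106-fold, Msr1 93.3-fold, Mertk 68.6-fold and Lyve1 64.8-fold. Axl was 10.0-fold, Cd163 8.87-fold and Mrc1 5.82-fold higher. Each of the 8 was higher in 6 of 6 runs. Irf8, a transcription factor gene of DCs, was the only listed gene called lower in macrophages (201 against 766 UPM), while 6 of 7 ligand and bridge genes and 5 of 5 heme and iron genes compared were higher, Gas6 96.0-fold and Hmox1 32.8-fold.

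Timd4 was 13.4-fold lower in macrophages than in conventional DCs (3.83 against 51.3 UPM) and lower in 6 of 6 runs. Its highest level of the 15 gates in the CD11c-selected cells was in cDC1, the DCs that cross-present antigen from dead cells. It ranged there from 47.4 over a median of 74.2 to 98.5 UPM, with 69.6 over all runs (CI 63.8 to 75.8). Next were migratory DCs at 43.3, of which the runs ranged from 8.41 to 186, the Cd209f macrophages at 22.9 and cDC2 at 17.9. The CI of the last 2 overlapped. Without run 6, migratory DCs stood at 20.02 and Cd209f macrophages at 18.0, and without run 1 cDC2 stood at 10.9. In the CD4/CD8-selected cells, which held 8 conventional DCs, the 34 Cd209f macrophages had 73.9 UPM of Timd4 (CI 46.3 to 112). A Timd4 UMI was detected in 8.97% of cDC1 after thinning (CI 6.52% to 12.0%) and in 26.9% unthinned, and in 0 of the thinned T cells of the CD4/CD8 matrix, which allows up to 0.0171%.

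Cd36 was the other member shared with cDC1. It stood at 136 UPM in cDC1 (CI 128 to 144), with runs from 80.9 over a median of 136 to 155, against 114 in all macrophages. It was 10.6-fold higher in cDC1 than in cDC2 (12.8 UPM), and Timd4 was 3.88-fold higher in cDC1. The Cd36 level in cDC2 was 4.22 without run 4 and 3.96 with a gate marker minimum of 1 UMI. Between these DC types only 4 of the 10 members could be compared. Of these, 2 were higher in cDC1 and 2 lower, with 7.33% of 6768 genes higher and 9.26% lower. Cd36 was found in 23.2% of cDC1 after thinning and in 72.2% without, at a median of 15185.5 UMIs per cell. The 41 thinned cDC1 with Timd4 had 185 UPM of Cd36, and the 416 without had 131, a ratio of 1.41 (CI 1.16 to 1.70). Xcr1 stood at 214 UPM in the former and 256 in the latter.

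Mrc1 and Axl were the members lower in cDC1. Mrc1 stood at 257 UPM in cDC2 (runs 140 to 464) and 16.0 in cDC1 (runs 6.30 to 55.2), 16.1-fold lower in cDC1, and Axl at 42.9 and 12.2. The 6 macrophage markers summed to 1553 UPM in cDC2 and 1078 in cDC1, against 10746 in all macrophages, and their part in the Mrc1 level of cDC2 was not tested. With a gate marker minimum of 1 UMI, the Mrc1 level of cDC1 was 50.4, and with the minimum raised by 2 UMIs it was 5.33.

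In fibroblasts, 8 of 9 members compared were lower than in macrophages, with 19.1% of 8104 genes higher in macrophages and 21.4% lower. Axl was the exception. It stood at 287 UPM in fibroblasts (CI 262 to 314) and 271 in all macrophages, and its 4 runs with at least 5 fibroblasts ranged from 213 over a median of 300 to 392. Macrophage markers summed to 249 UPM in fibroblasts, and Folr2 and Cd163 had 0 UMIs there (up to 1.79 UPM). Without run 4, Cd163 (19.6 UPM in macrophages) was below the level for this comparison. The ligand genes were higher in fibroblasts than in macrophages, with Gas6 at 592 against 150 UPM and Pros1 at 312 against 46.9, as 2 of 5 ligand and bridge genes called so out of 7. Axl was detected in 38.3% of fibroblasts after thinning and in 83.3% without, against 0.751% of the CD4/CD8-selected T cells after thinning. Among macrophages, Axl was highest in those of no named gate, at 335 UPM (CI 329 to 340), where fibroblast markers summed to 9.45.

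Endothelial cells, only 37 in number, expressed 3 of the members. Stab1 reached 308 UPM (CI 268 to 353), a level overlapping that of Cd209f macrophages, and was found in 32 of the 37 cells. The 4 runs with at least 5 endothelial cells ranged from 240 over a median of 309 to 363. Cd36 and Lyve1 were unevenly spread. Cd36 stood at 273 with runs from 0 to 749, and 161 of its 185 UMIs lay in 3 cells. Its level fell to 106 without run 1. All 105 Lyve1 UMIs lay in 2 cells, both with a UMI of Prox1, the transcription factor gene of lymphatic endothelium. The Lyve1 level of 155 UPM fell to 47.8 without run 1. In the 48 endothelial cells of the CD4/CD8 selection, Stab1 stood at 101 UPM, below the 467 of Cd209f macrophages there. Cd36 stood at 161 and Lyve1 at 14.6 in these 48 cells.

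Across the 15 gates of the CD11c-selected cells, the genes most like each member were found among 9756 genes with at least 500 UMIs, by the Pearson correlation of log2(UPM + 1). The gates come from 1 matrix and differ in depth and cell number, and the values are descriptions. Msr1 was most like Trem2 (r = 0.969), Ms4a7 and Tfec, Folr2 most like F13a1 (r = 0.961), Kcnk13 and Pf4, and Mertk most like Ang (r = 0.963), Blvrb and Hmox1. Mrc1 was nearest to Clec4a3 (r = 0.930), Clec4a2 and Ccl9, Cd163 to Slc39a12 (r = 0.951), Rnf141 and Retnla, and Lyve1 to Chp2 (r = 0.938), Ednrb and Stard8. The nearest genes were Gna12 (r = 0.945), Tmem86a and Dram2 for Stab1, Sh3tc1 (r = 0.902), Snx3 and Parvb for Cd36, Dse (r = 0.895), Tmem119 and Fn1 for Axl, and Fancl (r = 0.881), Zdhhc23 and BC035044 for Timd4. Among the members themselves, Folr2 and Mertk were most alike (r = 0.933) and Stab1 and Timd4 least (r = -0.233).

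The macrophages that came along with the CD4/CD8-selected cells gave a second view. There were 927 of them, at a median of 17109 UMIs per cell. The Cd209f gate held 34 cells and the Gpnmb/Spp1 gate 203, of which 182 were in run 3. Between these gates 5 members were higher in the Cd209f gate (Mrc1, Cd163, Lyve1, Timd4 and Folr2) and 2 lower (Msr1 and Axl), with 15.4% of 7056 genes higher and 13.3% lower. Mrc1 was 6.97-fold higher (1666 against 239 UPM), Cd163 had a ratio of 504 (CI 211 to 1576) and Msr1 was 3.62-fold lower (131 against 474).

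Without run 3, 21 Gpnmb/Spp1 and 31 Cd209f macrophages were left, and 6 members were higher and 1 lower, with 19.5% of 6987 genes higher and 15% lower. The sixth was Cd36, which went from a ratio of 0.708 to 2.62 (297 against 114 UPM), and Axl, at 81.3 against 144, no longer passed the limit. Mrc1 was then 19.8-fold higher, Folr2 5.38-fold higher instead of 2.26-fold, and Msr1 3.30-fold lower. Cd163, Lyve1 and Timd4 had 0 UMIs in the 21 Gpnmb/Spp1 macrophages. With the 0 set to 3 counts, their ratios were 62.1, 28.0 and 8.41, with lower CI limits of 49.8, 22.1 and 6.16. Of the listed genes, Gas6 (874 against 268 UPM over all runs), Pros1 (144 against 37.1) and Maf (615 against 100.2) were higher in the Cd209f gate, as in the CD11c-selected cells. Hmox1 was lower there over all runs (2164 against 6868 UPM) but higher in both runs that had at least 5 cells in each gate. Over all runs, 2 of 7 further phosphatidylserine receptor genes and 2 of 11 further scavenger receptor genes were higher in the Cd209f gate. In these lists 3 and 4 genes were lower, whereas 0 were higher in the CD11c-selected cells. In the same CD4/CD8-selected cells, T cells held at most 3.76 UPM of a member (Axl), and fibroblasts held 403 of Axl.

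Over all macrophages, Cd36 (3.27-fold), Folr2 (3.02-fold), Msr1 (2.78-fold) and Mertk (2.01-fold) were higher in the CD4/CD8-selected than in the CD11c-selected matrix and 0 members were lower, with 2.63% of 7197 genes higher and 3.27% lower. Bead selection, tumor stage and library cannot be told apart in this comparison. Without run 3 the ratios were 1.17 for Cd36, 1.43 for Folr2, 0.944 for Msr1 and 1.64 for Mertk, and none of the 4 passed 2-fold, while Cd163 went from 0.918 to 2.40. In run 3, where 38.2% of macrophages were in the Gpnmb/Spp1 gate, the level was 487 UPM for Cd36, 575 for Folr2, 458 for Msr1 and 77.9 for Mertk. Among other macrophages alone, Folr2 (2.76-fold), Msr1 (2.27-fold) and Cd36 (2.07-fold) were higher in the CD4/CD8-selected cells and 0 members lower, with 1.98% of 7234 genes higher and 1.71% lower. Without run 3 these ratios were 1.55, 0.876 and 0.907, and none passed 2-fold. Within the Gpnmb/Spp1 gate, Mrc1 (3.28-fold), Folr2 (3.09-fold) and Cd36 (2.43-fold) were higher and 0 lower, with 1.83% of 7144 genes higher and 2.67% lower, and Msr1 had a ratio of 1.23. Without run 3, which held 182 of the 203 cells, the ratios were 1.11 for Mrc1, 1.23 for Folr2 and 0.619 for Cd36, and none of the 3 passed 2-fold.

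**Figure D5:**
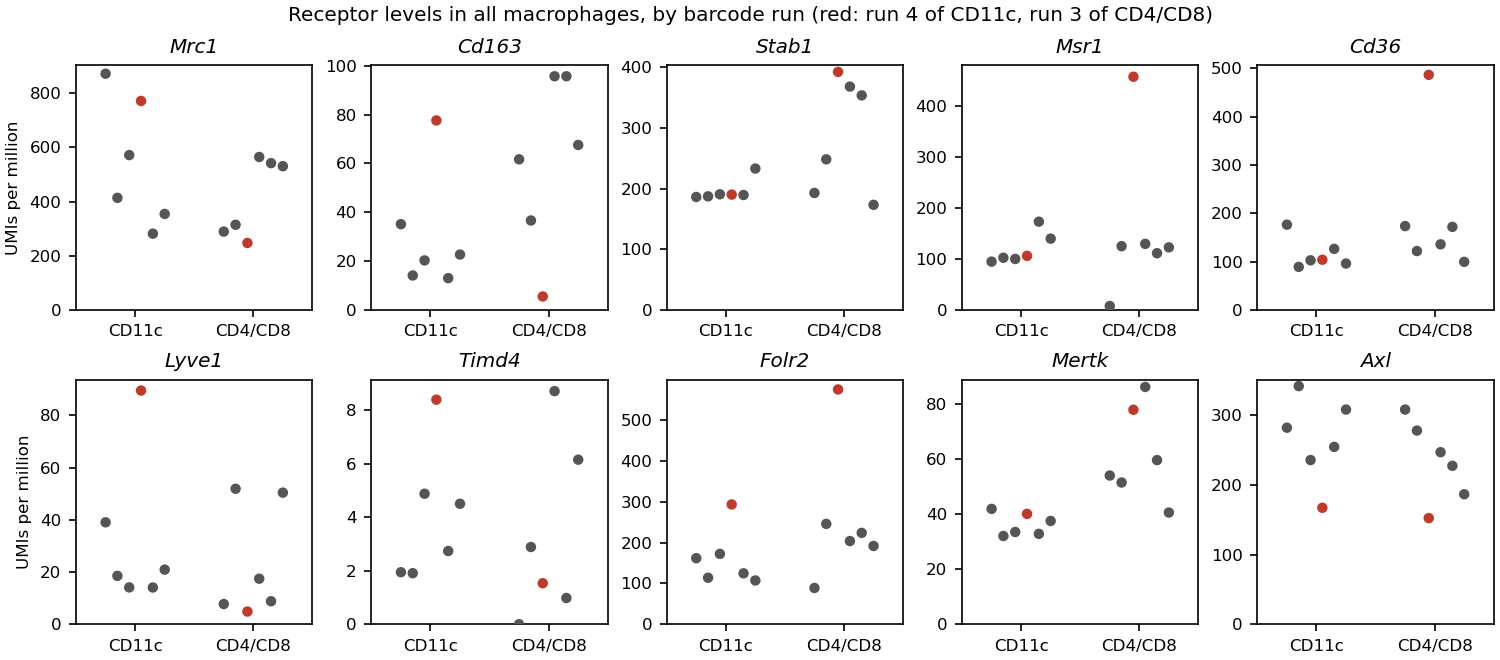
Levels (UPM) of each receptor gene in all macrophages, with 1 point for each of 6 barcode runs in the CD11c-selected and the CD4/CD8-selected cells. Run 3 of the CD4/CD8-selected cells (red) is the highest for Msr1, Cd36 and Folr2, and run 4 of the CD11c-selected cells (red) is the highest of that matrix for Cd163, Lyve1, Timd4 and Folr2.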

How the data were processed

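The values are raw UMI counts, which the authors deposited as 2 matrices of genes by cells, 1 for the CD11c-selected and 1 for the CD4/CD8-selected samples, made with Cell Ranger 3.0.2 on mm10 according to the submitters' processing notes. The gene annotation was not given in the sources used here. Each matrix pools 6 samples, and its barcodes name neither sample nor genotype, so the genotypes were not analysed here and no p-values were computed. Cells with fewer than 200 detected genes were left out (341 of 11980 and 295 of 23101). Doublets were not called or removed, beyond leaving cells of more than 1 macrophage gate out of the 4 gates.

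Cells were gated on raw counts. The Cd209f and Il10 gates required 2 UMIs of the gene, and the Gpnmb/Spp1 and Thbs1/Vegfa gates 2 UMIs of each of their genes. All other gates excluded cells with 10 or more C1q UMIs. Ly6c2 monocytes had at least 3 UMIs of Ly6c2 and 5 of Lyz2, cDC1 2 of Xcr1 and Clec9a together, cDC2 2 of Cd209a and 1 of Flt3, migratory DCs 2 each of Ccr7 and Fscn1, fibroblasts 10 of collagen genes and 1 of Dcn, endothelial cells 1 each of Cdh5 and Pecam1, and T cells 2 of the CD3 genes. Levels are summed UMIs scaled to 1000000, with exact Poisson intervals, and ratios have exact conditional intervals at 95%. PCR duplicates are removed by the UMIs, and the intervals cover counting error only. A gene was compared where its mean over both groups was at least 10 UPM and more than 3 UMIs were counted in 1 of them. A gene near 0 in 1 group met this mean only through the other, so its call is not separate from the filter. A difference of at least 2-fold was called, and a group at 0 was set to 3 counts over the group. For shares of cells and detection of pairs, each cell was thinned to 2000 UMIs (seed 1), leaving out shallower cells (601 of 6721 macrophages). Ranges are over barcode runs with at least 5 cells in the gate. The call procedure was tested on simulated counts with genes changed 4-fold and counting error alone. That test did not cover the spread between runs or changes near 2-fold.

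The members and lists were chosen with earlier results of these data known. Genes are named as members, as up to 4 genes per list by highest level among those past 2-fold, or as the 3 genes most like a member over 15 gates among genes with at least 500 UMIs. Pros1, and Hmox1, Abca1 and the sheddase genes where they were under 2-fold, and Xcr1, Clec9a, Flt3 and Prox1, were named after their values were seen. The endothelial and T cell looks and the removal of run 3 and run 4 were also added after seeing the data. Of the 31053 gene symbols, 30431 (98.0%) matched GENCODE M21. Python 3.11.15, numpy 2.4.6, scipy 1.17.1, pandas 2.3.3 and matplotlib 3.10.9 were used. Some listed genes are not reported here.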

Additional observations from a re-analysis of the deposited data

Results flagged for a closer look

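In all macrophages, 20 sets of 6 barcode runs were examined (10 genes in 2 matrices), and 7 had a lowest or highest run separated from the rest by more than Dixon's 95% limit. Chance flags about 1 in 20 such sets, and runs of 1 matrix share their cells across genes, so the 7 are not independent.

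Run 4 of the CD11c-selected cells, with 276 macrophages, stood apart for Cd163 at 77.6 UPM (13.0 to 35.1 in the other runs), Lyve1 at 89.5 (14.05 to 39.0) and Folr2 at 293 (107 to 172). In this run 4.71% of macrophages were in the Cd209f gate, against 1.01% to 1.98% in the others, and the median depth was 31096.5 UMIs per macrophage. Without it, the levels were 19.6 UPM for Cd163, 20.01 for Lyve1 and 132 for Folr2. Run 6 stood apart for Stab1 at 233 UPM (186 to 191 in the others).

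Run 3 of the CD4/CD8-selected cells, with 476 macrophages, stood apart for Msr1 at 458 UPM (7.71 to 130 in the other runs), Cd36 at 487 (99.5 to 174) and Folr2 at 575 (88.7 to 246). In this run 38.2% of macrophages were in the Gpnmb/Spp1 gate, against 0% to 8.64% in the others.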

How the results depend on the processing

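The counts of members called were recomputed with other gate minimums, other C1q minimums, cells of several gates kept, other cell filters, a mean over cells and each barcode run left out. Members higher in the Cd209f than in the Gpnmb/Spp1 gate numbered 4 to 5 under these settings and also 5 at 4-fold, members higher in macrophages than in conventional DCs 8 throughout, members higher than in Ly6c2 monocytes 3 to 6, and members highest in the Cd209f gate 6 to 7. Members lower in the Cd209f gate numbered 1, but 2 with the mean over cells, 0 at 4-fold and 1 to 2 with a run left out. Msr1 alone was lower over all runs, and Axl or Cd36 joined it when a run was left out. Of 130 levels per setting, 0 moved by over 1.5-fold with at least 500 genes per cell and 19 with the mean over cells. Keeping cells of several gates raised Msr1 to 176, Folr2 to 104 and Mertk to 37.8 UPM in the Thbs1/Vegfa gate. The cause of these shifts was not tested, other than by the settings' own construction. The 54 monocytes and 37 endothelial cells limit the precision there. No paired analysis was possible because the matrix columns carry no sample or replicate number.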
